A study of Rattus norvegicus with 23 samples.

Results

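Lipoprotein receptors and proteins of lipid uptake were followed in peripheral blood mononuclear cells of rat pups at weaning, 9 genes in all: Lrp1, Lrp8, Vldlr, Scarb1, Cd36, Msr1, Sorl1, Star and Fabp5. Probes were taken by the gene name printed in the scanner files, which gave 11 of the 41012 probes on the array, for 8 of the 9 genes and of 17685 genes named on it. No probe carried the name Msr1. A probe was tested when the pup's signal was well above background on 50% or more of the arrays in 1 or more groups. By that filter 9 member probes of 7 genes were kept, among 23693 probes kept in all. The study asked how moderate calorie restriction of lactating dams marks the blood cells of their young.

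The pups were Wistar rats aged 21 days, 1 pup per array, in 4 groups. Dams of the CR pups received a diet cut by 20% in calories through lactation, and dams of control pups ate standard chow freely. There were 5 CR males, 6 control males, 6 CR females and 6 control females, and all pups were killed while fed freely. The CR pups came from at most 5 dams and the control pups from at most 11. No label says which pups shared a dam, so each pup was taken as independent and p-values may be too small. Each array set 1 pup's RNA (Cy5) against a pool of all samples (Cy3), with no dye swap, and every value below is a log2 ratio to that pool. A ratio compares arrays for 1 probe, and does not rank genes against each other.

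Receptors of the LDL receptor family carry lipoproteins and other ligands into cells by endocytosis, and release them in endosomes before they return to the surface. Scavenger receptors bind modified lipoproteins and fatty acids, and the class B receptors among them also move lipid across the membrane without taking up the whole particle. In blood, such receptors are best known on monocytes, which become lipid-laden foam cells in arterial walls, and CD36 is also found on platelets and, in humans, on red cell precursors.

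Cd36 and Lrp1 are described in most detail, and the sequences around their start sites are shown because these genes followed markers of different cells across the arrays. RefSeq's promoter table, on build GRCr8, held 4 of the 9 members. The windows run from 250 bases before to 50 bases after the gene's start, and are printed 5′ to 3′ on the gene's own strand. The Cd36 window is chr4:18246332-18246631 (+ strand) and the Lrp1 window is chr7:65346147-65346446 (- strand). Capitals mark a match to GAGGAA or to its reverse complement, the letters of the PU.1 core site.
Cd36: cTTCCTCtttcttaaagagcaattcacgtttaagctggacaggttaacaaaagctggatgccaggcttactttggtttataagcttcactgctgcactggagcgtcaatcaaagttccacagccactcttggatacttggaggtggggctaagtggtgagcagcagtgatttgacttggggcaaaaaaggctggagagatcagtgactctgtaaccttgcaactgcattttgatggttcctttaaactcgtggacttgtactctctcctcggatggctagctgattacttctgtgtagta
Lrp1: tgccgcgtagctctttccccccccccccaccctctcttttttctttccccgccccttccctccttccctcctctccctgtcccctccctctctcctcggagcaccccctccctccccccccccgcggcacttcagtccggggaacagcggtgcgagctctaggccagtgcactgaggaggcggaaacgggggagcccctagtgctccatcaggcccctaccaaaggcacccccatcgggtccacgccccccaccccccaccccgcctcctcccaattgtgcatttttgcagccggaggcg
The search covered AGATAA, the letters of a GATA site, and GAGGAA, each on both strands, and both were chosen after the relations to cell markers had been seen. AGATAA was in neither window, nor in those of Vldlr and Sorl1, and 11.6% of 33469 promoters of the same length held it. GAGGAA occurred 1 time in the Cd36 window, in reverse complement at its upstream end, and in 27.6% of all promoters. It was in none of the other 3 windows.

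Per array 20603 to 24076 probes were well above background, and the number of arrays limits the precision. Markers of T cells (12 of 12 matched genes), B cells (8 of 8) and monocytes (10 of 11) passed the filter, and so did markers of red cells (11 of 11) and platelets (8 of 9). CR male replicates 1 and 3 and CR female replicate 5 stood apart from the other 20 arrays on the first 2 principal components, by a limit chosen with the scores in view. The background correction (normexp) left 4 arrays with a raised floor: CR male replicate 4, CR female replicates 2 and 5, and control female replicate 2. On them the 5th percentile of corrected Cy5 was 217 to 294, against 59.8 to 95.7 on the other 19 arrays. Ratios of dim probes lay nearer 0 there: those of Lrp1 (A_44_P375553) averaged 0.088 in size on the 4 arrays and 0.21 on the others, and 0.20 and 0.21 with plain background subtraction. Values without these arrays are given for Cd36, for the relation of Sorl1 to the B cell list and where a sign changed. Other results are given with these arrays included. With plain background subtraction, CR and control females averaged 0.047 and 0.35 for Lrp1 (A_44_P375553) and 0.042 and 0.48 for Sorl1 (A_42_P552341). For Scarb1 (A_44_P379244) they averaged 0.048 and 0.22.

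No member passed the test in any comparison. Of the 9 probes, limma called 0 at an adjusted p under 0.05 for each of the 4 diet comparisons, where 0% of all 23693 probes were called: CR minus control for the males, for the females, averaged over the sexes, and the male minus the female effect. For males minus females 0 of 9 were called, against 0.0549% of all probes (13 of 23693). The smallest adjusted p of a member was 0.592, shared by Scarb1, Sorl1 and Lrp1 averaged over the sexes.

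At an unadjusted p under 0.05, 3 of 9 probes differed in males (7.48% of all probes), of which Cd36 was higher in CR males (3.46% of all probes were) and 1 probe each of Lrp1 and Scarb1 was lower (4.02%). In females 3 of 9 differed (4.74%), with 0 higher (1.92%) and 3 lower in CR females (2.82%): Lrp1, Scarb1 and Sorl1. Averaged over the sexes 3 differed (7.42%), with 0 higher (2.46%) and 3 lower (4.96%). For the male minus the female diet effect 2 differed (4.86%), both positive (2.27%) and 0 negative (2.58%), and these were Cd36 and Sorl1. For males minus females 1 differed (7.18%), with 0 positive (3.57%) and 1 negative (3.61%). The median CR minus control difference of the 9 probes was -0.055 in males (all probes -0.0046), -0.10 in females (all probes -2.26e-04) and -0.11 averaged over the sexes (all probes 0.0012).

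**Figure D1:**
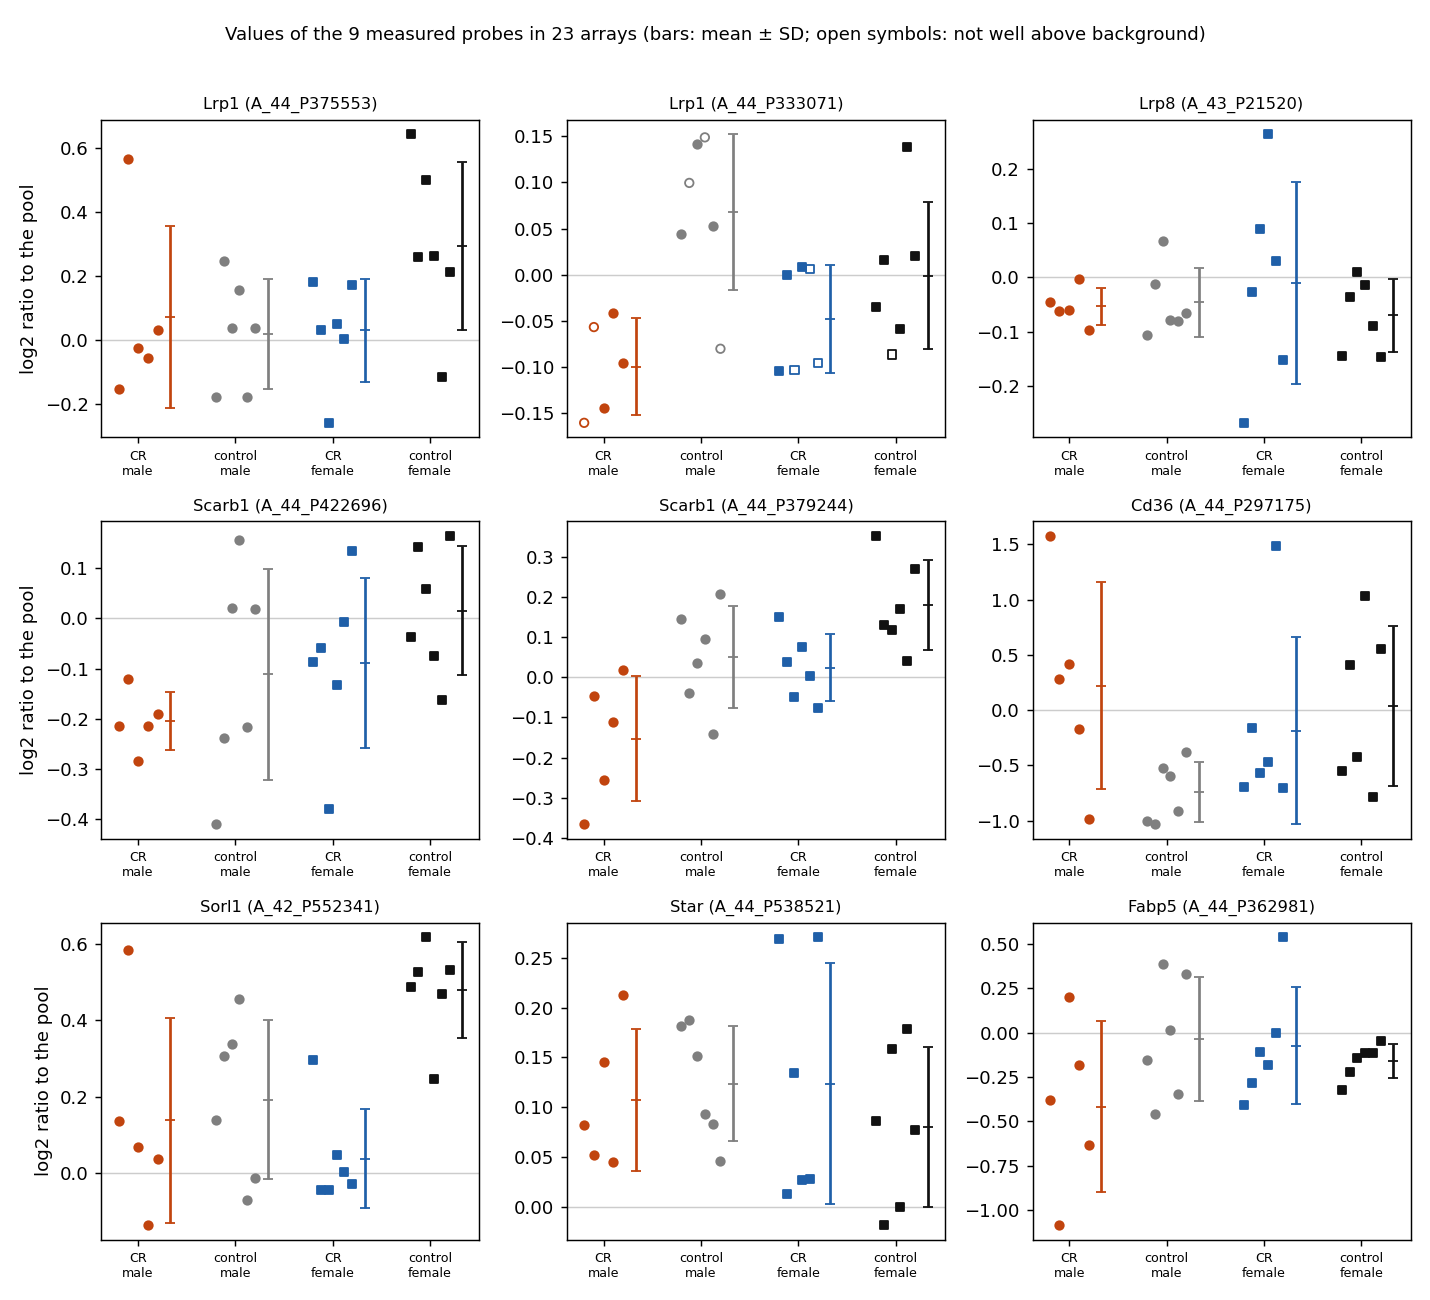
Log2 ratio to the pool (vertical axes, each with its own scale) of the 9 tested probes in CR males, control males, CR females and control females, 1 point per pup, with the mean and SD at the right of each group. Open points were not well above background. Cd36 spans the widest range, from -1.03 to 1.58, and Sorl1 in control females lies from 0.25 to 0.62.

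Lrp1 is a large endocytic receptor for apolipoprotein E-rich remnants and for protease complexes, with high levels in macrophages and hepatocytes. It had 2 probes, A_44_P375553 (rn4 chr7:67521714-67521773) and A_44_P333071 (rn4 chr7:67565586-67565793), which start 43872 bases apart. The first was well above background on 23 of 23 arrays and the second on 14 of 23: 3 of 5 CR males, 3 of 6 control males, 3 of 6 CR females and 5 of 6 control females.

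On A_44_P375553 the CR males were at -0.15, 0.56, -0.027, -0.057 and 0.030, and the control males ran from -0.18 through a median of 0.037 to 0.25. Only CR male replicate 2 lay above the control males, and the ranges overlapped. The difference was 0.052 ± 0.13 (SE, CR minus control, limma adjusted p 0.953), with a 95% interval of -0.21 to 0.32. It was -0.071 without CR male replicate 2, and -0.11 with median centring in place of loess, a setting that left the median of all probes in males at -0.18 and this probe at 0.066 relative to it. In females the CR pups ran from -0.26 through 0.041 to 0.18, and the control pups from -0.12 through 0.26 to 0.64. All 6 CR females were below the mean of the control females, although the ranges overlapped. The female difference was -0.26 ± 0.12 (unadjusted p 0.0410, adjusted p 0.994), and the CR pup was the lower on 5 of 6 slides. It was -0.69 by the scanner software's own ratio and -0.16 as the mean of both Lrp1 probes. The diet difference in males minus that in females was 0.32 ± 0.18 (adjusted p 0.920). It was 0.19 without CR male replicate 2, 0.098 as the mean of both Lrp1 probes and 0.76 by the scanner software's own ratio.

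The second Lrp1 probe gave another picture. On A_44_P333071 the CR males were at -0.16, -0.057, -0.14, -0.041 and -0.096, against -0.080 to 0.15 (median 0.076) in control males. All 5 CR males were below the control mean, and only the lowest control male reached into their range. The difference was -0.17 ± 0.050 (unadjusted p 0.00298, adjusted p 0.625) in males, negative on 4 of 4 slides, and -0.64 (unadjusted p 0.0902) by the scanner software's own ratio. With median centring it was -0.15 in males, where the median of all probes was -0.18, so that this probe was at 0.025 relative to it. In females the difference was -0.047 ± 0.048 (adjusted p 0.994). Over the 23 arrays the probes correlated at -0.058 by Pearson and 0.038 by Spearman. In males the mean of both probes differed by -0.058, so no direction for Lrp1 in males holds over its probes.

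**Figure D2:**
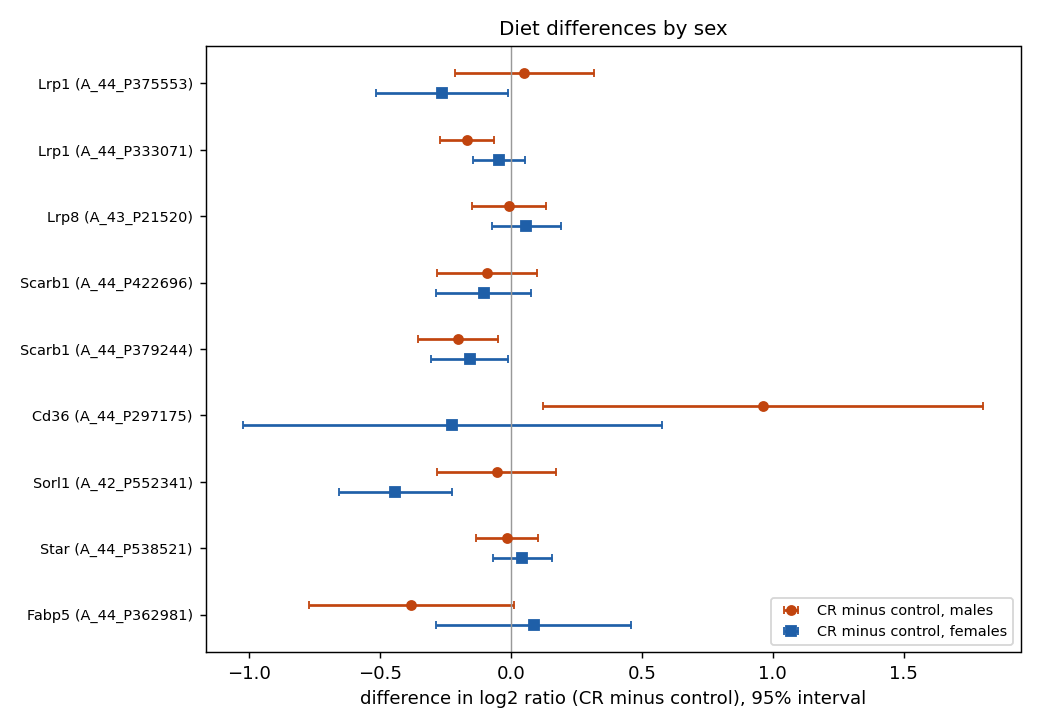
CR minus control difference in log2 ratio with its 95% interval (horizontal axis) for each tested probe, in males (circles) and females (squares). The intervals of Cd36 in males (0.12 to 1.81) and Sorl1 in females (-0.66 to -0.23) lie off 0, as do those of A_44_P333071 (Lrp1) in males, A_44_P375553 (Lrp1) in females and A_44_P379244 (Scarb1) in both sexes, and no adjusted p was under 0.05.

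Across the 23 arrays the brighter Lrp1 probe followed monocyte genes. Its Pearson's r with the mean of 10 monocyte markers (among them Cd14, Csf1r and Lyz2) was 0.84 and Spearman's rho 0.77 (permutation p 1.0e-05, the smallest that 100000 draws can give, and 4.0e-05, two-sided; adjusted 1.2e-04 and 4.8e-04 over 24 relations). The r was 0.74 without the 2 arrays farthest from the median, 0.82 on deviations from group means and 0.85 on deviations from slide means. With the dendritic cell list (5 genes) r was 0.63 and rho 0.60 (adjusted permutation p 0.0084 and 0.0161), and with the red cell list r was 0.041.

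The monocyte list itself ran from -0.28 to 0.59 in CR males, against -0.16 to 0.22 in control males. In CR females it ran from -0.30 to 0.27, against -0.12 to 0.58 in control females. Of its 10 genes 9 had a positive CR minus control difference in males (median 0.14) and 2 in females (median -0.17). By limma 0 passed the adjusted test, and at an unadjusted p under 0.05 there were 0 in males (7.48% of all probes) and 1, lower, in females (2.82% of all probes were lower). The array with the highest monocyte mean, CR male replicate 2 at 0.59, was also the CR male with the highest Lrp1 value. In a bulk preparation fewer cells of a type and less RNA per cell cannot be told apart, and what part the monocyte genes have in the Lrp1 values was not tested.

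By correlation over the 23 arrays, among 14339 probes of other named genes, those most like the brighter Lrp1 probe were Ltbr, the lymphotoxin beta receptor (r 0.87), Csf1r, the receptor for macrophage colony-stimulating factor (0.86), and Fes, a tyrosine kinase of myeloid cells (0.85). Card9, a signalling adaptor of myeloid cells (0.85), and Grn, the gene of progranulin (0.85), followed. On deviations from group means these r were 0.81 to 0.85. In CR females minus control females Csf1r was at -0.50, Grn at -0.37, Fes at -0.35, Ltbr at -0.27 and Card9 at -0.27, beside -0.26 for Lrp1. In males they were at 0.034, -0.046, 0.026, -0.077 and 0.14 in the same order, beside 0.052. These genes were chosen by correlation over the same arrays, so their differences are not independent of that of Lrp1.

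**Figure D3:**
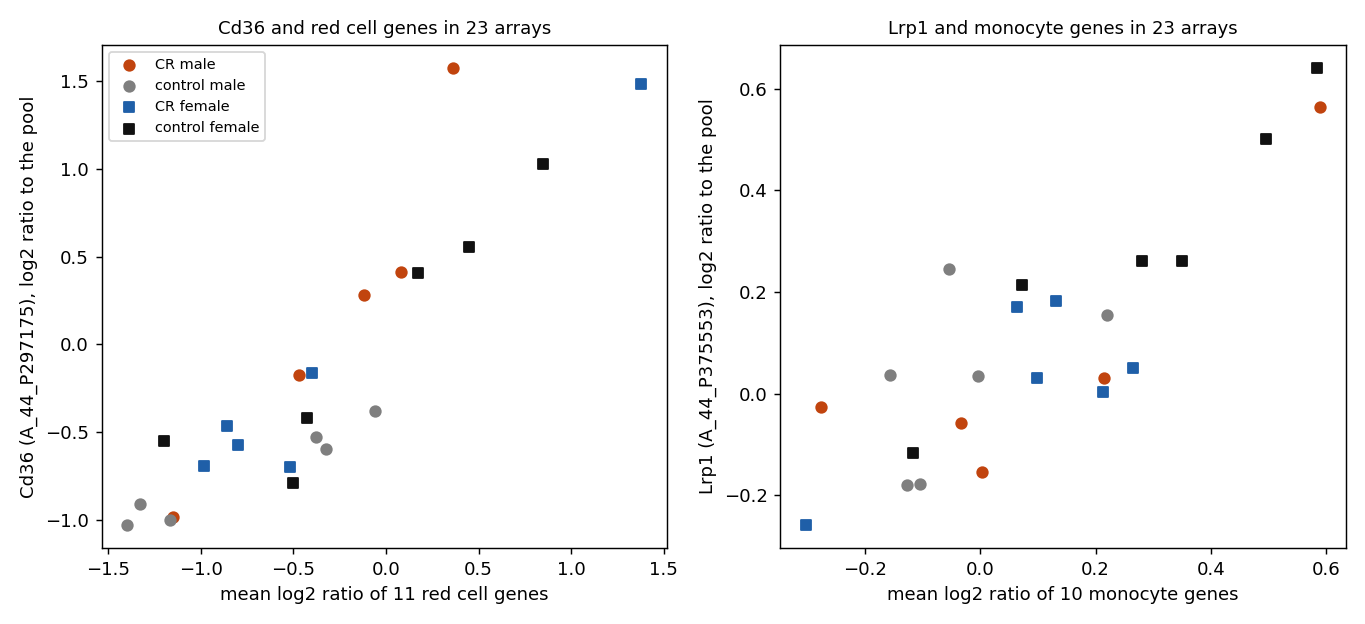
Left, Cd36 against the mean of 11 red cell genes, and right, Lrp1 (A_44_P375553) against the mean of 10 monocyte genes, both axes in log2 ratio to the pool, 1 point per array, in CR males, control males, CR females and control females. Pearson's r is 0.90 on the left and 0.84 on the right.

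Lrp8, the apolipoprotein E receptor 2 that also binds reelin, is best known in brain and platelets. Its probe A_43_P21520 (rn4 chr5:128962602-128962661) was above background on all 23 arrays and differed little between groups in the main setting. CR males averaged -0.053 ± 0.034 and control males -0.046 ± 0.064 (SD, n = 5 and 6), and CR females averaged -0.011 ± 0.19 and control females -0.070 ± 0.067 (SD, n = 6 each). CR females had the widest spread, from -0.27 to 0.26, and took in every other group. The 95% intervals of the diet difference were -0.15 to 0.13 in males and -0.074 to 0.19 in females. Over the alternative settings the female difference ran from 0.049 to 0.25, past that interval. The probe was dim, with a mean log2 intensity of 6.67, against 6.41 for the Vldlr probe. The probe for Vldlr, the receptor for triglyceride-rich lipoproteins that carry apolipoprotein E (A_44_P214922, rn4 chr1:230694104-230695049), was not well above background on any of 23 arrays, so no comparison was made. Its ratios there lay between -0.11 and 0.11.

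Sorl1 is a sorting receptor of the LDL receptor family that steers cargo such as the amyloid precursor protein between the Golgi and endosomes. Its probe A_42_P552341 (rn4 chr8:44966408-44966467) was above background on all 23 arrays. CR females ran from -0.045 through a median of -0.014 to 0.30, and control females from 0.25 through 0.51 to 0.62. Of the CR females, 5 lay below every control female, and only CR female replicate 1 reached into their range. The difference was -0.44 ± 0.10 (SE, unadjusted p 3.18e-04, adjusted p 0.994), the 7th smallest p of 23693 probes.

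Between pups hybridised on the same slide, the CR female was lower than the control female on 6 of 6 slides, with differences of -0.66 to -0.19. In males the CR pups were at 0.14, 0.58, 0.069, -0.14 and 0.038, against -0.071 to 0.46 (median 0.22) in control males, and the ranges overlapped. The male difference was -0.055 ± 0.11 (adjusted p 0.937), positive on 3 of 4 slides. The male minus female difference of the diet effects was 0.39 ± 0.15 (unadjusted p 0.0174, adjusted p 0.920). That gap depended on the normalization. With median centring in place of loess, where the median of all probes was -0.18 in males and -0.15 for the difference between the sexes, Sorl1 in males was at -0.36 relative to that median and the gap was 0.075 relative to it (-0.072 as measured).

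The second Sorl1 probe, A_44_P250291, has no position in the array design and was above background on 1 of 23 arrays, so it was not tested. Sorl1 followed the dendritic cell list (r 0.67, rho 0.63, permutation p adjusted over 24 relations 0.00248 and 0.0131), the B cell list (r 0.55, adjusted p 0.0263) and the monocyte list (r 0.54, adjusted p 0.0312). By Spearman's rho the B cell and monocyte relations had adjusted permutation p of 0.0528 and 0.0965. Without the 2 farthest arrays these r were 0.68, 0.50 and 0.40, and without the raised-floor arrays the B cell one was 0.47. In the same order, the r on deviations from group means were 0.59, 0.42 and 0.48, and on deviations from slide means 0.70, 0.65 and 0.49. The B cell markers were lower in CR females in 7 of 8 genes (median -0.31) and in CR males in 8 of 8 (median -0.46). By limma 0 passed the adjusted test, and at an unadjusted p under 0.05, 4 were lower in CR females (2.82% of all probes were) and 5 in CR males (4.02%). Of the dendritic cell list, Cd74 and Ciita, genes of the class II pathway that B cells also express, were at -0.62 and -0.21 in females. Its other genes Siglech, Cd86 and Batf3 were at 0.048, 0.038 and -0.068. The part of these lists in the Sorl1 difference was not tested.

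Scarb1 encodes the HDL receptor SR-BI, which takes cholesteryl esters from the particle without engulfing it. Both its probes, A_44_P422696 (rn4 chr12:32457588-32457647) and A_44_P379244 (rn4 chr12:32447458-32450453), were above background on all 23 arrays, and they correlated with each other at 0.46 by Pearson and 0.51 by Spearman. On A_44_P379244 the CR males were at -0.37, -0.046, -0.26, -0.11 and 0.018, against -0.14 to 0.21 (median 0.065) in control males. CR females ran from -0.076 through 0.021 to 0.15, and control females from 0.040 through 0.15 to 0.35. In each sex every CR pup was below the mean of its controls (5 of 5 males and 6 of 6 females), while the ranges overlapped.

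The differences on A_44_P379244 were -0.20 ± 0.074 in males and -0.16 ± 0.071 in females, and their mean was -0.18 ± 0.051 (SE, unadjusted p 0.00193, adjusted p 0.592), the 74th smallest p of 23693. On single slides the CR pup was lower in 4 of 4 male pairs and 6 of 6 female pairs. On A_44_P422696 the CR males were at -0.21, -0.12, -0.28, -0.21 and -0.19, within the control males' range of -0.41 to 0.16. The difference averaged over the sexes there was -0.098 ± 0.064 (adjusted p 0.787), lower on 4 of 4 slides in males and 5 of 6 in females. Both probes therefore had the same sign in both sexes, without passing the adjusted test. Leaving out the 3 arrays that stood apart gave -0.097 in males on A_44_P379244 (unadjusted p 0.235), and the scanner software's own ratio gave -0.52 in males and -0.32 in females. The same probe was the only one of the 9 with an unadjusted p under 0.05 between the sexes, at -0.15 ± 0.051 for males minus females (p 0.00669, adjusted p 0.680), lower in males on average over the diets.

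**Figure D4:**
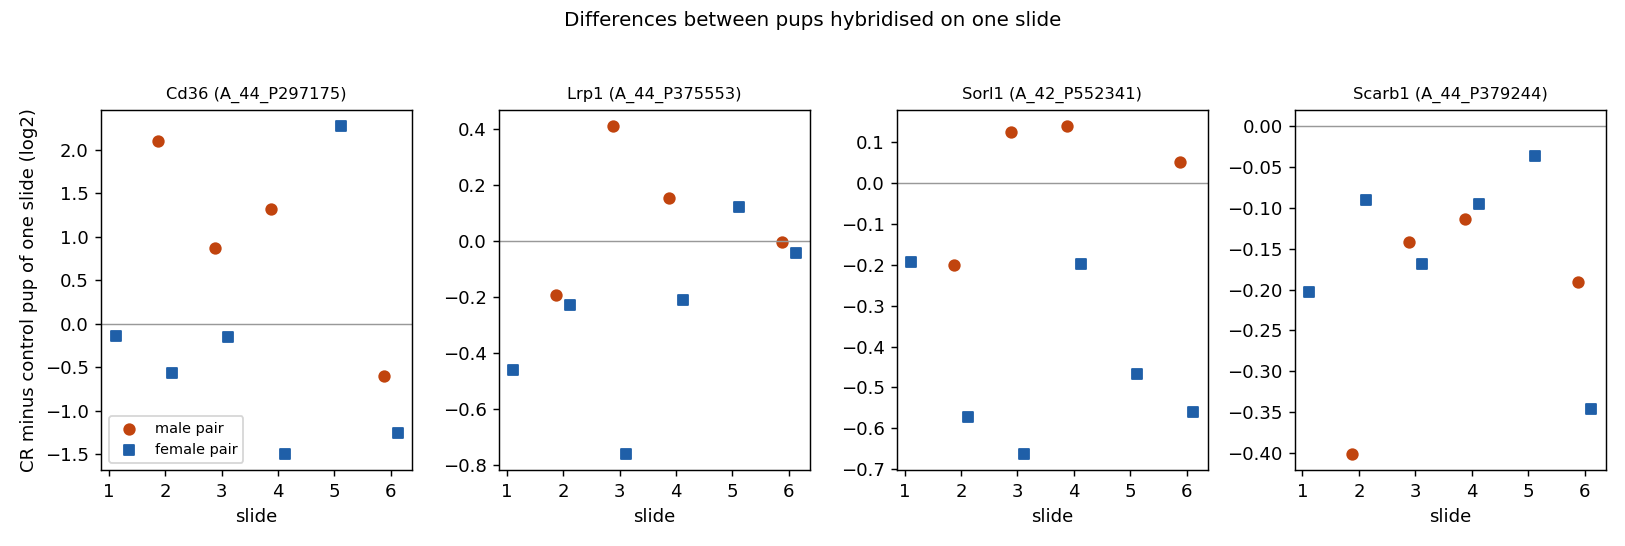
CR minus control difference in log2 ratio between pups of the same sex on 1 slide (vertical axes) by slide (horizontal axes, 1 to 6), for Cd36, Lrp1 (A_44_P375553), Sorl1 and Scarb1 (A_44_P379244); circles are male pairs (4 slides) and squares female pairs (6 slides). Sorl1 lies below 0 in all 6 female pairs and Scarb1 in all 10 pairs.

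Cd36 encodes a class B scavenger receptor for oxidised LDL and long-chain fatty acids. Its probe A_44_P297175 (rn4 chr4:13518295-13519542) was spotted 10 times on each array. The median SD between the spots of an array was 0.067 and the error of their mean 0.022, against an SD of 0.77 between arrays, so spot noise was small beside the spread between pups. CR males were at 1.58, 0.28, 0.41, -0.17 and -0.98, and control males ran from -1.03 through -0.75 to -0.38. CR males 1 to 4 lay above every control male, and replicate 5 lay among them. The difference was 0.96 ± 0.41 (SE, CR minus control, unadjusted p 0.0265, adjusted p 0.640), with an interval of 0.12 to 1.81. It was 0.63 without CR male replicate 1 and 1.27 without replicate 5.

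For Cd36 in females, CR pups ran from -0.70 through -0.52 to 1.49, and control pups from -0.79 through -0.0074 to 1.03. A single CR female, replicate 5 at 1.49, was above all control females, and the other 5 were at or below -0.16. The difference was -0.22 ± 0.39 (adjusted p 0.997) with all arrays and -0.56 without that replicate. It was -0.025 without control female replicate 4. The male minus female difference of the diet effects was 1.19 ± 0.56 (unadjusted p 0.0456, adjusted p 0.920). On single slides the CR pup was higher in 3 of 4 male pairs and in 1 of 6 female pairs. Without the 3 arrays that stood apart, 2 of which are the highest CR males, the male difference was 0.45, the female one -0.56 and their mean -0.054, against a mean of 0.37 ± 0.28 with all arrays. Without the raised-floor arrays the male difference was 1.06 and the female one -0.57.

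Cd36 followed red cell genes over the 23 arrays. Its r with the mean of 11 red cell markers (among them Hbb, Alas2, Slc4a1 and Klf1) was 0.90 and rho 0.89 (permutation p 1.0e-05 each, the smallest possible; adjusted 1.2e-04 and 2.4e-04). The r was 0.84 without the 2 farthest arrays, 0.90 within groups and within slides, and 0.90 without the arrays that stood apart. With the monocyte list r was 0.18 and with the platelet list 0.044, although both cell types are known to carry CD36. The red cell list ran from -1.15 to 0.36 in CR males, against -1.40 to -0.060 in control males. In CR females it ran from -0.98 to 1.38, against -1.20 to 0.85 in control females. In CR males 10 of its 11 genes were positive (median 0.47) and in CR females 1 was (median -0.27), with 0 past limma's adjusted test. At an unadjusted p under 0.05 there were 0 in either sex (7.48% of all probes in males and 4.74% in females). Hbb at 1.09 and Alas2 at 1.01 had the largest male differences of the list, beside 0.96 for Cd36. In females they were at -0.27 and -0.35, beside -0.22. The rest of the list ran from -0.16 (Tfrc) to 0.91 (Ahsp) in males, and from -0.48 (Slc4a1) to 0.026 (Tfrc) in females. The part of the red cell genes in the Cd36 difference was not tested.

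Among 14340 probes of other named genes, those most like Cd36 were Rsad2, an interferon-induced antiviral enzyme (r 0.96), Cmas, which activates sialic acid (0.96), 2 probes of Kel, the Kell blood group protein (0.95 and 0.94), and Add2, beta-adducin of the membrane skeleton (0.94). Within groups these r were 0.94 to 0.96. In males Rsad2 differed by 0.95, Add2 by 0.77, the Kel probes by 0.31 and 0.63 and Cmas by 0.42, beside 0.96 for Cd36, and in females all 5 lay between -0.20 and -0.12. These probes were chosen by correlation over the same arrays, so their differences are not independent of that of Cd36. In the RefSeq table the genes listed beside Cd36 are Cd36l1 and Cd36-ps1, and whether their RNA binds this probe was not tested.

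Msr1 is the class A scavenger receptor of macrophages. The only probe tied to it, A_44_P928825 (rn4 chr16:56293586-56293645), is named by a synonym in the files and lies outside the selection by name. It was above background on 1 of 23 arrays, a CR male, and was not tested.

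Fabp5 binds fatty acids in the cytosol of skin cells and macrophages. Its probe A_44_P362981, placed on an unassigned sequence of rn4 (chrUn:41847300-41847359), gave -0.38, -1.09, 0.20, -0.18 and -0.64 in CR males, against -0.46 to 0.39 (median -0.071) in control males. CR male replicates 2 and 5 lay below every control male, and the ranges overlapped. CR females ran from -0.41 through -0.14 to 0.54 and took in every control female, from -0.32 through -0.13 to -0.045. The difference was -0.38 ± 0.19 (unadjusted p 0.0564, adjusted p 0.674) in males and 0.086 ± 0.18 (adjusted p 0.997) in females. Without the 3 arrays that stood apart the male value was -0.60, and without CR male replicate 2 it was -0.21. With median centring it was -0.83 (limma unadjusted p 9.27e-04, adjusted p 0.0931), and -0.65 relative to the median of all probes (-0.18). Between pups of 1 slide the difference was negative in 3 of 4 male pairs, with a lowest value of -1.10, and 0.55 in the other.

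Star carries cholesterol into mitochondria for steroid synthesis, and is best known in adrenal and gonad. Its probe A_44_P538521 (rn4 chr16:70640879-70640938) had 10 spots per array, with a median SD between spots of 0.089. The error of the mean of those spots was 0.029, against an SD of 0.082 between arrays. CR males averaged 0.11 ± 0.071 and control males 0.12 ± 0.058 (SD, n = 5 and 6), and CR females 0.12 ± 0.12 and control females 0.080 ± 0.080 (SD, n = 6 each). The intervals of the diet difference were -0.13 to 0.10 in males and -0.070 to 0.16 in females. Over the alternative settings the female difference ran from 0.031 to 0.24, past that interval. This probe was dim too, with a mean log2 intensity of 6.73.

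The groups also order differently from gene to gene. By group means, control females were highest for Lrp1 (A_44_P375553, 0.29), both Scarb1 probes (0.015 and 0.18) and Sorl1 (0.48). CR males were lowest for both Scarb1 probes (-0.20 and -0.15), Fabp5 (-0.42) and the second Lrp1 probe (A_44_P333071, -0.10), and highest for Cd36 (0.22). On that second Lrp1 probe control males were highest (0.068). Of the 27 steps between neighbouring groups over the 9 probes, 3 exceeded the larger SD of the groups they separate. These were control males below control females for Scarb1 (A_44_P379244, 0.051 against 0.18) and for Sorl1 (0.19 against 0.48), and CR males below CR females for Scarb1 (A_44_P379244, -0.15 against 0.024).

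Of 23 other genes of the LDL receptor family and its partners, 12 were measured and 0 passed limma's adjusted test in either direction. At an unadjusted p under 0.05, 1 was lower in males (4.02% of all probes were) and 1 in females (2.82%). Averaged over the sexes 2 were lower, Lrp10 and Snx17 (4.96% of all probes were), and 0 higher (2.46%). In males 7 were positive and 5 negative (median 0.012), and in females 5 and 7 (median -0.037). The brightest were Lrp10, a receptor that cycles between Golgi and endosomes (-0.12 ± 0.087 in males and -0.16 ± 0.083 in females), Snx17, an adaptor that returns LRP1 from endosomes to the surface (-0.20 ± 0.081 and -0.063 ± 0.077), and Apoe, a ligand of these receptors (-0.10 ± 0.20 and -0.16 ± 0.19; SE throughout).

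Of 17 further scavenger receptors 13 had a probe and 5 were measured, with 0 past limma's adjusted test. At an unadjusted p under 0.05 there were 0 in either sex (7.48% of all probes in males and 4.74% in females), a list too short to differ from that share. All 5 were negative in females (median -0.13), and 2 were in males (median 2.84e-04). Cd68 and Cd14 are also in the monocyte list, so the 2 lists are not independent. Cd68, a lysosomal protein of macrophages, was at 0.25 ± 0.20 in males and -0.18 ± 0.19 in females. Cd14, the endotoxin co-receptor of monocytes, was at -0.23 ± 0.25 and -0.31 ± 0.24, and Scarb2, a lysosomal membrane protein, at -0.016 ± 0.10 and -0.050 ± 0.097.

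Of 23 genes of fatty acid uptake and binding 17 were measured and 0 passed limma's adjusted test. At an unadjusted p under 0.05, 1 was higher in CR males (Slc27a2, against 3.46% of all probes) and 0 in CR females (1.92%). Averaged over the sexes 0 were higher (2.46% of all probes were) and 4 lower, against 4.96% of all probes lower. Named for that call, these were Fabp1 (-0.96 ± 0.42), Fabp6 (-1.38 ± 0.65), Slc27a4 (-0.24 ± 0.11) and Got2 (-0.28 ± 0.11; SE). In males 11 were negative and in females 12, with medians of -0.068 and -0.098. The largest differences, with wide errors, were those of Fabp6 (-1.88 ± 0.94 in males and -0.88 ± 0.90 in females), Fabp1 (-1.16 ± 0.61 and -0.76 ± 0.58) and Fabp2 (-0.96 ± 0.52 and -0.35 ± 0.49). Acsl1 and Acsl5, which couple fatty acids to coenzyme A, were at 0.15 ± 0.24 and 0.036 ± 0.10 in males, and at -0.083 ± 0.23 and -0.11 ± 0.10 in females. Dbi, the acyl-coenzyme A binding protein, was at -0.14 ± 0.091 in males and -0.0028 ± 0.087 in females. Of 18 START proteins and sterol carriers 13 were measured and 0 passed limma's adjusted test. At an unadjusted p under 0.05, 0 differed in males (7.48% of all probes did) and 1 was lower in CR females (2.82% of all probes were). Averaged over the sexes 1 was lower (4.96%). Of the 13 measured, 10 were negative in males (median -0.036) and 7 in females (median -0.056). Stard3, which holds cholesterol in late endosomes, was at -0.082 ± 0.12 in males and -0.14 ± 0.11 in females, Stard7, a carrier of phosphatidylcholine to mitochondria, at -0.012 ± 0.087 and -0.056 ± 0.083, and Tspo, a protein of the outer mitochondrial membrane, at -0.10 ± 0.11 and -0.077 ± 0.11.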

How the data were processed

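RNA of peripheral blood mononuclear cells from 23 pups was hybridised to Agilent rat arrays. The deposited scanner files hold an unnormalized intensity per spot and channel, and the submitters' processing notes name Feature Extraction 10.5.1.1 as the software. They also hold the scanner software's log10 ratio of Cy5 over Cy3, per the file headers, and other columns of spot flags, per the file headers. A table of log2 values deposited by the authors covers 22920 spots, made by a method not given in the sources used here, and its columns share a median of 7.23. It and the software's ratio served as alternatives.

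Intensities were background-corrected (normexp, offset 50), normalized by loess within arrays and averaged per probe. Spots flagged as outliers were left out. A model of the 4 group means was fitted over 23693 probes (limma 3.58.1, R 4.3.3), with Benjamini-Hochberg adjustment and a threshold of 0.05. Every probe of a member is described. In other lists a gene is its brightest kept probe, and the 3 brightest genes of each list are named. For Cd36 and Lrp1 the 5 probes of other genes most correlated with them are named. Gene names came from the files and the RefSeq table (GRCr8, names only), which left 18551 of 41012 probes unnamed. Positions are those of the array design (rn4). Slides were read as batches: 4 of 6 held all groups. Alternatives were other backgrounds, normalizations, filters, probe summaries, blocks and weights, and arrays left out. The scripts were tested on simulated data. Members and lists were chosen with earlier results of these data known.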

Additional observations from a re-analysis of the deposited data

Results flagged for a closer look

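Of 36 groups of values (9 probes in 4 groups), 3 held an array far from the others by Dixon's test, which chance alone flags in about 1 group of 20. CR male replicate 2 was at 0.56 for Lrp1 (A_44_P375553), with the nearest CR male at 0.030. CR female replicate 5 was at 1.49 for Cd36, with the nearest CR female at -0.16, and its red cell mean of 1.38 was also the highest of the 23 arrays. CR female replicate 1 was at 0.30 for Sorl1, with the nearest CR female at 0.048.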

How the results depend on the processing

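Over 1640 recomputed member results (9 probes, 5 comparisons, other settings or 1 array left out) 0 passed the adjusted threshold and 46 changed sign, in 15 of 45 results. Median centring moved all probes together (in males to a median of -0.18), and of its 6 changes of sign 3 kept the sign of the main setting relative to that median: Lrp1 (A_44_P375553) in males, Star averaged over the sexes and the Sorl1 gap between the sexes. Other results kept their sign as measured but not relative to that median. In males these were Lrp1 (A_44_P333071) at 0.025, Lrp8 at 0.14 and Star at 0.096. For the difference between the sexes they were Lrp1 (A_44_P333071) at 0.052, Lrp8 at 0.025 and Scarb1 (A_44_P379244) at 0.013. The smallest adjusted p, 0.0608, was that of Sorl1 for the mean of the sexes without CR male replicate 2.

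Reversed values for CR minus control in males were Lrp1 (A_44_P375553) at -0.11 with median centring and -0.058 as the mean of its probes, Lrp8 at 2.07e-04 with scale normalization, 0.024 with the deposited value table and 0.0088 with array quality weights, Sorl1 at 8.66e-04 with the slides as a block and 0.014 without the raised-floor arrays, and Star at 0.016 with the slides as a block. In females Fabp5 was at -0.018 with scale normalization and -0.0068 with array weights. For the mean of the sexes Cd36 was at -0.054 without the arrays that stood apart and Star at -0.0071 with median centring. For the difference between the sexes Scarb1 (A_44_P422696) was at -0.25 with median centring, -0.056 with the value table, -0.018 as the mean of its probes and -0.031 with the slides as a block. Scarb1 (A_44_P379244) was at 0.035 with the value table and 0.055 without the arrays that stood apart, and Sorl1 at -0.072 with median centring. For males minus females Lrp1 (A_44_P333071) was at -0.45 with the scanner software's ratio, -0.029 with median centring, -0.033 with the value table and -0.0057 with background subtraction, Lrp8 at 0.017 with median centring and 0.0060 with background subtraction, and, without the raised-floor arrays, Cd36 at 0.11 and Star at -0.014. The cause of these reversals was not tested.

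With 1 array left out, results that changed sign ranged as follows. In males Lrp1 (A_44_P375553) ran from -0.071 to 0.11, Lrp8 from -0.020 to 0.016 and Sorl1 from -0.17 to 0.014, and in females Fabp5 from -0.036 to 0.15. For the mean of the sexes Lrp8 ran from -0.0013 to 0.052 and Star from -0.0012 to 0.025. For the difference between the sexes Scarb1 ran from -0.049 to 0.064 (A_44_P422696) and from -0.089 to 0.0072 (A_44_P379244), and for males minus females Lrp1 (A_44_P333071) from -9.19e-05 to 0.023 and Lrp8 from -0.035 to 0.018. Cd36 in males kept its sign, from 0.63 (without CR male replicate 1) to 1.27 (without CR male replicate 5).

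The count of called probes in males, 0, was 0 to 4 with 1 array left out (4 without CR male replicate 2). For the mean of the sexes it was 0 to 4 (4 without CR male replicate 2, 1 without CR female replicate 1), and 2 with array weights. For males minus females 13 became 8 with median centring and 7 with only probes above background on every array. Between groups, same-numbered arrays correlated at 0.072 on average and other-numbered ones at -0.013, and 5 of 23 correlated best with their own number. These values do not settle whether replicate numbers pair the samples, so the numbers served only as an alternative block. With the replicate block 1 probe was called in males. Background subtraction and leaving out the raised-floor arrays were added after the data were seen. Signal over background limits Vldlr, Msr1 and 1 probe each of Sorl1 and Lrp1. The Lrp8 and Star probes were above background on every array but dim, which limits them too.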
